A study of Danio rerio with 6 samples.

Results

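DEAD and DEAH box proteins are RNA helicases that use ATP to remodel RNA and RNA-protein complexes, and their names (DDX and DHX) come from the amino acid letters of a conserved ATPase motif. DEAD box enzymes open short duplexes locally, while DEAH box enzymes move along RNA. Together they act in splicing, mRNA export, translation, ribosome assembly and RNA decay, roles worked out mostly in yeast and mammals. The transcript of the DEAD box protein Vasa marks zebrafish germ plasm, the egg cytoplasm from which primordial germ cells take their fate. The transcripts described here are the 36 rows whose gene symbol begins with ddx or dhx and a number, leaving out ddx4 and ddx6, and whose mean over all 6 libraries was at least 10 normalized counts. Of 37 rows with such a symbol 36 reached the minimum. They were 36 of 21051 rows in the table and 36 of the 13265 rows that reached the same minimum and were tested. The row vasa, which encodes the DDX4 ortholog, served only as the reference for strong enrichment.

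The libraries came from zebrafish zygotes (Danio rerio). RNA co-precipitated with Tdrd6a, a Tudor domain protein of germ plasm, was sequenced in 3 libraries (IP), and RNA of the input in 3 libraries. Values of libraries are given in the order of replicates 1, 2 and 3. No strain, genotype, age or treatment is named in the labels, and both groups carry the same description apart from the fraction. The labels name zygotes as the source, while the text on the series' design speaks of ovary tissue. Whether the replicates of a group were separate clutches is not stated, and the spread behind each p-value may therefore be technical. No mock precipitate was analysed here. A difference between IP and input is one of relative recovery in the precipitate and not of amount per cell. For levels within a group, bulk RNA cannot tell a lower amount per cell from fewer cells holding a transcript. Library totals, recovered as whole reads, ran from 10481206 to 19804774 in input and from 4031863 (IP replicate 2) to 22466764 in IP. All 9 egg markers found in the table were present, with summed values of 33738 to 35304 normalized counts in input and 26732 to 32898 in IP. Of 7 genes of zygotic transcription 1 reached a mean of 10 (summed 196 to 374 in input and 172 to 530 in IP, with sox17 at 0). Of 4 follicle cell genes 1 did (summed 8.8 to 39.2 in input and 15.3 to 26.3 in IP, with cyp19a1a and lhcgr at 0).

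The comparison asked how far transcripts of this enzyme family departed from no change in the Tdrd6a precipitate. The centre of the 36 members lay at no change, with a median log2 fold change (IP against input) of 0.01, beside -0.01 over all genes tested. Of the estimates 19 lay above 0 and 17 below (52.8% above, background 49.6%). The median size of the change, in either direction, was 0.31 on the log2 scale (1.24-fold), against 0.50 (1.41-fold) over all genes tested and 0.48 over the 10340 of them with a mean of at least 50. The members were more abundant than most tested genes, since the median of their mean levels was 636 normalized counts against 227, and 22 of 36 had a mean of at least 500. The part of abundance in their smaller changes was not tested. The central part of the 36 members, between the lower and upper quartiles, ran from -0.21 to 0.43, against -0.49 to 0.52 over all genes. Helicase rows under other symbols are not among the 36, and the 11 of them tested had a median of 0.39.

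**Figure D1:**
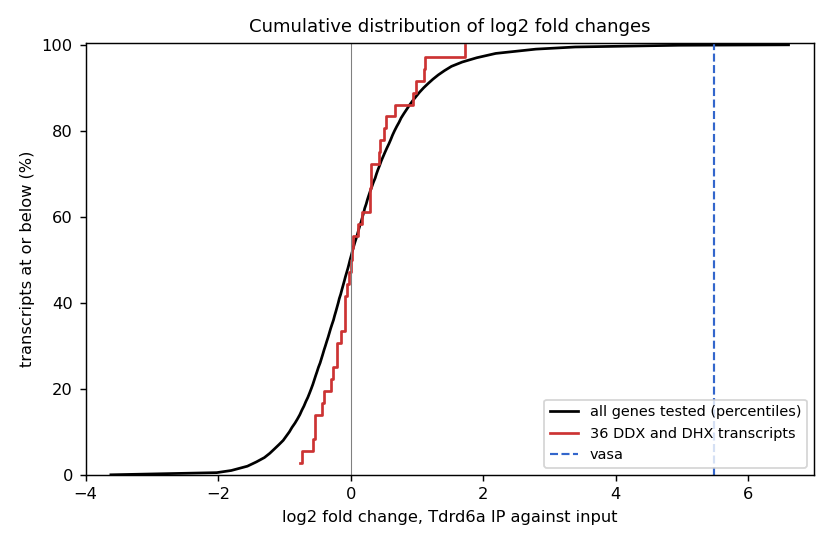
Cumulative percentage of transcripts (y axis) at or below each log2 fold change of IP against input (x axis). The 36 helicase transcripts (red) cross 0 near the middle, as all 13265 tested genes do (black), and end at 1.73, far left of vasa (dashed, 5.48).

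Of the 36 members 2 were called higher in IP at an adjusted p under 0.05 (limma with Benjamini-Hochberg adjustment over all genes), ddx39aa and ddx39ab. That is 5.56% of the members, against a background of 6.32% of all tested genes called in either direction and 4.46% called higher, so the share is near the background. None was called lower (0 of 36, background 1.86%). With limma at an unadjusted p under 0.05 there were 3 higher and 1 lower, 11.1% against a background of 21.2%. On recovered reads edgeR, DESeq2 and limma voom also called 0 members lower, and over all 13265 genes they called 246, 564 and 323 lower. These are small shares of all genes, so 0 of 36 shows nothing particular to the members. At least 2-fold differences were found for 3 members, all higher (ddx39aa, ddx11 and ddx39ab), which is 8.33% of the members. The background was 20.1% in either direction and 11.8% higher. Over all genes 838 were called, and 1392 with replicate number as a block. The block left the members called as they were, with ddx39aa and ddx39ab higher.

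A missed threshold does not show that a transcript was unchanged, and the 95% intervals bound the size of change these libraries allow. The intervals of 32 members held 0, and those of 4 did not (11.1%, background 21.2%). Those of 30 lay wholly within a 4-fold change either way (83.3%, background 70.2%), and those of 16 within a 2-fold change (44.4%, background 18%). These backgrounds are not matched for abundance, and the median of mean levels was 636 normalized counts for members against 227 over all tested genes. The part of abundance in these shares was not tested. The intervals reached 0.55 to 1.38 log2 units to either side of the estimate, with a median of 0.74. These bounds belong to the fit without pairing. With replicate number as a block, 31 intervals held 0 and 35 lay within a 4-fold change. The matching shares over all genes are not given for the block, which raised all genes called from 838 to 1392. Its counts of intervals therefore show nothing particular to the members.

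**Figure D2:**
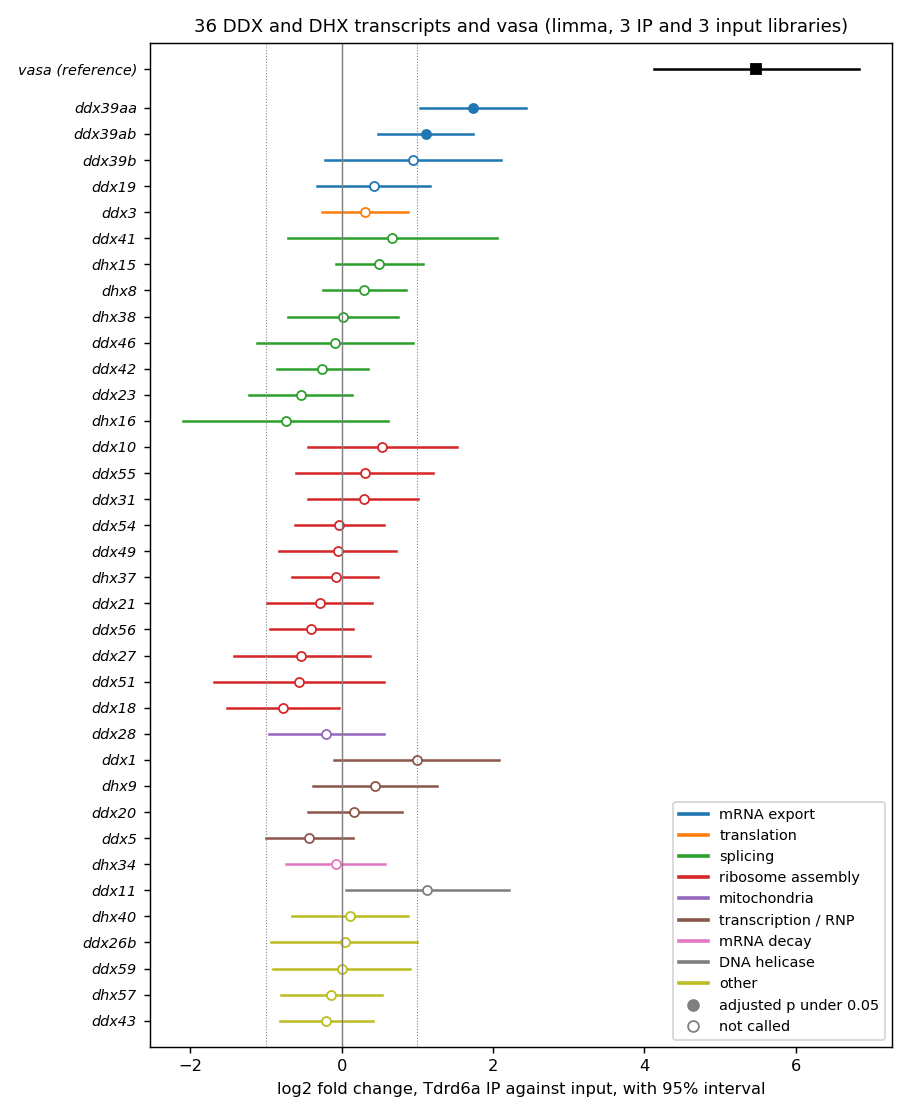
Log2 fold change of IP against input (x axis) for each helicase transcript, grouped by role (colours), with 95% intervals from limma. Filled points mark ddx39aa (1.73) and ddx39ab (1.11), the members called, and the square marks vasa at 5.48.

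The reference row stood far outside this range. The vasa transcript (ENSDARG00000014373) had 837.3, 609.4 and 565.2 normalized counts in input replicates 1, 2 and 3, and in IP replicates 1, 2 and 3 it had 35980, 67823 and 10661. Every IP library exceeded every input library, and the log2 fold change was 5.48 ± 0.59 (SE, 95% interval 4.12 to 6.83, adjusted p = 0.00207). The lower end of that interval, 4.12, lay above the upper end of every member's interval, the highest of which was 2.43. Relative to vasa, the members' enrichment was 13.4-fold (ddx39aa) to 76-fold (ddx18) smaller, with a median of 44.2-fold. The ratio of each of the 36 members to vasa was lower in every IP library than in every input library. A two-sided exact permutation test without pairing gave p = 0.1 for each, the smallest that 3 unpaired libraries against 3 allow. If replicate numbers pair the libraries, only swaps within pairs are valid, and these cannot reach so small a p. The ratio to vasa was likewise lower in every IP library for 99.2% of all tested genes, so standing below vasa is not particular to the helicases. A limma fit of the difference from vasa called all 36 lower (background 99.5%), but its p-values are too small, since the spread of vasa enters every gene.

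As a share of all normalized counts, the 36 transcripts together took 0.261%, 0.24% and 0.212% in input replicates 1, 2 and 3. In IP replicates 1, 2 and 3 they took 0.297%, 0.198% and 0.299%. The groups overlapped, with the lowest share in IP replicate 2. The mean was 0.238% ± 0.0246 in input and 0.265% ± 0.0577 in IP (SD, n = 3 each), and the order turned, to 0.344% ± 0.0236 and 0.319% ± 0.0462, when the 20 most abundant rows were left out of the totals. The vasa transcript alone took 0.00419% to 0.00713% in input. It took 0.23%, 0.447% and 0.0911% in the IP libraries, so in IP replicate 2 it outweighed the whole family.

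Among the roles with more than 1 member, mRNA export helicases had the highest median log2 fold change, 1.03. All 4 estimates lay above 0, as did 49.6% of all tested genes. Apart from ddx19 (0.43) these are related ddx39 genes, so the median mainly describes that gene group. The role lists were drawn up with earlier results of these data known. Of the 4, 2 were called higher, 0 lower and 2 were not called, against backgrounds of 4.46% higher and 1.86% lower. DESeq2 and voom also called 2 higher and 0 lower, and edgeR called 1 higher (ddx39aa) and 0 lower. Over all 13265 genes DESeq2 called 1063 higher, voom 614 and edgeR 578. With limma at an unadjusted p under 0.05, 2 export members were higher and 0 lower (background 21.2%). The ddx39 genes encode relatives of UAP56 and URH49, which load export factors onto spliced mRNA and which also act in early spliceosome assembly. The transcript of ddx39aa (ENSDARG00000006225) had 1955.8, 1323.9 and 1084.1 normalized counts in input replicates 1, 2 and 3 and 6482.7, 3714.7 and 4325.2 in IP replicates 1, 2 and 3. The groups did not overlap, and the lowest IP library held more than the highest input library. The log2 fold change was 1.73 ± 0.32 (SE, adjusted p = 0.0108), a 3.33-fold difference that ranked 499 of 13265 genes. Over all alternatives the adjusted p ran from 2.9e-05 (DESeq2) to 0.08. The call was lost without input replicate 2 (1.69, adjusted p = 0.0679) or input replicate 3 (1.55, adjusted p = 0.08). All genes called higher also fell in these fits, from 591 to 239 and 188.

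The transcript of ddx39ab (ENSDARG00000015111), the most abundant member, had 3087.9, 2947.7 and 3059.3 normalized counts in input replicates 1, 2 and 3 and 9220.2, 5711.1 and 5333.8 in IP replicates 1, 2 and 3. Input libraries were close together, and all IP libraries lay above them. The difference was 2.16-fold (log2 fold change 1.11 ± 0.28, SE, adjusted p = 0.0431), close to the threshold. It was not called with edgeR (adjusted p = 0.0552), TMM scaling (0.0568) or library size only (0.0656), nor without input replicate 1 (0.159), 2 (0.166) or 3 (0.172) or IP replicate 1 (0.0946). All genes called higher numbered 170, 239 and 188 without input replicates 1, 2 and 3, against 591 in the main fit. Without IP replicate 1 they numbered 271. The table of gene identifiers gives both rows the symbol DDX39A, and RefSeq lists ddx39b among the older names of ddx39ab. Whether reads were split between these related genes was not tested.

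The third ddx39 row was far less abundant. The transcript of ddx39b had 161.4, 42.6 and 73.6 normalized counts in the input libraries and 234.9, 101.5 and 164.1 in the IP libraries (replicates 1, 2 and 3). Each IP library exceeded the input library of the same number, as for ddx3, ddx19, ddx41 and dhx9 among other members. The groups of ddx39b overlapped, and its log2 fold change of 0.94 ± 0.53 was not called (adjusted p = 0.343). The transcript of ddx19, which encodes the helicase that releases export factors at the cytoplasmic face of the nuclear pore, had 2200.2, 1521.6 and 1945.2 normalized counts in the input libraries and 3766.1, 1556.6 and 2696.5 in the IP libraries. Its log2 fold change was 0.43 ± 0.34 (adjusted p = 0.526), with IP replicate 2 inside the input range.

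**Figure D3:**
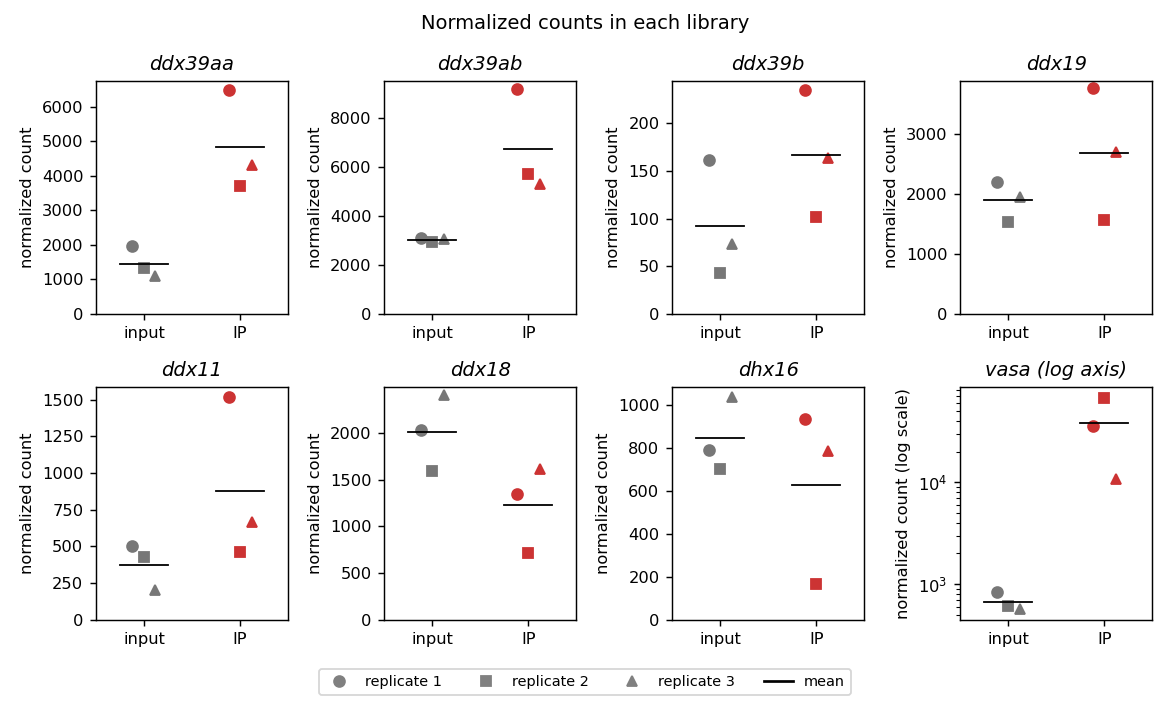
Normalized counts (y axis) of 7 helicase transcripts and vasa in each input (grey) and IP (red) library, with group means as lines; only the vasa panel has a log axis. The groups separate for ddx39aa, ddx39ab and vasa, while the low mean of dhx16 in IP comes from IP replicate 2 (165.4).

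Spliceosome helicases, which drive the rearrangements of splicing and the release of its products, were spread around no change. Of 8 measured, limma called 0 (background 6.32%), with 0 at an unadjusted p under 0.05 (background 21.2%). With edgeR, DESeq2 or voom 0 were called, and the median was -0.04 on the log2 scale. The transcript of dhx15, whose product takes spent spliceosomes apart, had values of 728.5, 824.8 and 692.0 in input and 1317.7, 947.5 and 955.5 in IP, in normalized counts. All IP libraries lay above all input libraries, an order that 5 members showed (ddx39aa, ddx39ab, dhx15, ddx1 and dhx8; 13.9%, background 14.6%). The log2 fold change of dhx15, 0.50 ± 0.26, was not called (adjusted p = 0.304). That of dhx8, needed to release spliced mRNA, showed the same order with a smaller difference, 0.30 ± 0.25 (adjusted p = 0.546). The transcript of ddx23, which encodes a helicase of the U5 particle that acts at spliceosome activation, was at -0.54 ± 0.31 (adjusted p = 0.355), with overlapping groups.

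For dhx16, a DEAH box gene of spliceosome activation, 1 library set the estimate. Its transcript had 790.2, 702.8 and 1038.4 normalized counts in the input libraries and 933.4, 165.4 and 783.0 in the IP libraries. IP replicate 2, with 44 reads for this gene, was the only IP library outside the input range. The log2 fold change of -0.74 ± 0.59 (adjusted p = 0.535) had an interval that reached lower than that of any other member, to -2.09, and without IP replicate 2 the estimate was 0.04. On recovered reads it was -0.45 with edgeR and -0.44 with DESeq2. The remaining splicing members were dhx38 (0.02), which acts at the second step of splicing in yeast, ddx42 (-0.26) and ddx46 (-0.09), which act with the U2 particle, and ddx41 (0.67). The last was the least abundant member, with a mean of 37.4 normalized counts and 9 reads in IP replicate 2, and its interval ran from -0.71 to 2.05.

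Helicases of ribosome assembly, most of which act on pre-ribosomal RNA in the nucleolus, made up the largest group. Of 11 measured limma called 0 (background 6.32%), with 0 higher and 1 lower at an unadjusted p under 0.05 (background 21.2%). With edgeR, DESeq2 or voom 0 were called. Of the estimates 8 lay below 0 and 3 above (background 49.6% above), with a median of -0.08 and a range from -0.77 to 0.54. The transcript of ddx18, which encodes a large subunit assembly factor, had 2034.3, 1591.5 and 2404.1 normalized counts in the input libraries and 1351.0, 718.1 and 1610.6 in the IP libraries. Each IP library was below the input library of the same number, as for ddx5, ddx23, ddx51 and ddx56 among other members. For ddx18, IP replicate 3 was above input replicate 2. Its log2 fold change was -0.77 ± 0.33, the lowest of the family (adjusted p = 0.215), and -0.43 without IP replicate 2. With replicate number as a block in limma, the adjusted p was 0.105.

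Among the other ribosome assembly members, ddx56 was the only 1 of the 36 whose IP libraries all lay below all input libraries (2.78%, background 12.9%). It had 795.8, 817.4 and 700.9 normalized counts in the input libraries and 593.5, 586.5 and 564.6 in the IP libraries. The difference was small against the fitted spread, at -0.40 ± 0.25 (adjusted p = 0.396). The transcript of ddx51 (-0.56 ± 0.51, adjusted p = 0.588) had 103.1, 85.3 and 212.7 normalized counts in the input libraries and 50.7, 75.2 and 144.8 in the IP libraries, with overlapping groups. That of ddx27, whose product acts on the large subunit (-0.53), was low only in IP replicate 2, at 270.7 normalized counts against 731.8 and 713.0 in IP replicates 1 and 3. The IP libraries split for ddx10, whose yeast counterpart acts on the small subunit (0.54), with 1392.0 and 659.9 normalized counts in replicates 1 and 3, above the input range of 426.1 to 492.5, and 342.1 in replicate 2, below it. The rest of the group, ddx21 (a nucleolar cofactor of rRNA transcription and processing), ddx31, ddx49, ddx54, ddx55 and dhx37 (a small subunit assembly factor), lay between -0.29 and 0.31.

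The family also held a gene of DNA metabolism. The transcript of ddx11, which encodes a DNA helicase of sister chromatid cohesion, had 499.9, 428.6 and 200.5 normalized counts in the input libraries and 1519.2, 458.7 and 664.8 in the IP libraries. Each IP library exceeded its same-numbered input, as for ddx39b, but IP replicate 2 fell below input replicate 1. The log2 fold change was 1.13 ± 0.48 (2.19-fold, adjusted p = 0.209), and it was called only without IP replicate 2 (1.51, adjusted p = 0.0445). With replicate number as a block in limma, the adjusted p was 0.055. The log2 fold change was 0.65 without IP replicate 1 and 0.74 without input replicate 3.

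Among genes of transcription and ribonucleoprotein assembly limma called 0 of 4 (background 6.32%), with 0 at an unadjusted p under 0.05 (background 21.2%). With edgeR, DESeq2 or voom 0 were called. The transcript of ddx1, which encodes a component of the tRNA ligase complex, had 99.8, 74.2 and 28.6 normalized counts in the input libraries and 128.6, 112.8 and 129.1 in the IP libraries. All IP libraries lay above all input libraries. The IP values were close to each other while the input values were spread, and the log2 fold change of 0.99 ± 0.50 was not called (adjusted p = 0.287). The transcript of ddx5, which encodes a cofactor of transcription and splicing, was at -0.43 ± 0.26 (adjusted p = 0.39). Those of dhx9, the RNA helicase A gene (0.44), and ddx20, the Gemin3 gene of the complex that assembles spliceosomal particles (0.17), had overlapping groups.

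The translation factor gene ddx3, whose product helps initiation on structured leaders, had 2147.5, 1969.3 and 2181.1 normalized counts in the input libraries and 2718.0, 2064.1 and 3107.9 in the IP libraries. The groups overlapped through IP replicate 2, and the log2 fold change was 0.31 ± 0.26 (adjusted p = 0.553), with an upper bound of 0.88. The mitochondrial ribosome assembly gene ddx28 was at -0.20 ± 0.35 (adjusted p = 0.801) and the nonsense-mediated decay gene dhx34 at -0.08 ± 0.30 (adjusted p = 0.911). The 5 members without a shared role (ddx26b, ddx43, ddx59, dhx40 and dhx57) lay between -0.20 and 0.11. Of these limma called 0 (background 6.32%), with 0 at an unadjusted p under 0.05 (background 21.2%) and 0 with edgeR, DESeq2 or voom. Despite its symbol, ddx26b is related to a subunit of the Integrator complex. Within this set ddx43 had 981.8, 988.0 and 1023.4 normalized counts in the input libraries and 1126.6, 924.9 and 632.2 in the IP libraries. Its log2 fold change was -0.20 ± 0.28 (adjusted p = 0.752). That of dhx57 was -0.14 ± 0.30 (adjusted p = 0.854), with 458.7 normalized counts in IP replicate 2 against 748.7 to 865.2 in the other libraries.

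Split by symbol, the 27 DDX transcripts had a median log2 fold change of 0.00 and the 9 DHX transcripts 0.02. The median size of change was 0.40 among DDX symbols and 0.14 among DHX symbols. This split follows names and not enzyme class, since the DDX symbols include ddx26b and the DNA helicase gene ddx11. These values were not tested. The 1 row that missed the abundance minimum, dhx58, encodes a relative of the antiviral RNA sensor RIG-I in mammals. It was at 0, 0 and 0.7 normalized counts in the input libraries and 0.7, 11.3 and 0 in the IP libraries, at most 3 reads in any library, while ddx41, the next above the minimum, had a mean of 37.4 against 2.12.

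The members were also read in each IP library on its own. Measured against the input mean, the members' median was 0.19 on the log2 scale in IP replicate 1, 0.03 in replicate 2 and 0.05 in replicate 3. Over all tested genes these medians were 0.02, 0.01 and 0.01. In IP replicates 1, 2 and 3, 23, 18 and 18 of 36 members lay above 0. In IP replicate 1, 9 members were at least 2-fold higher and 1 at least 2-fold lower. In IP replicate 2, 1 was higher and 3 were lower by that margin, and in IP replicate 3, 2 were higher and 0 lower. In either direction these were 10, 4 and 2 of 36 members, while 28.9%, 31.7% and 22.9% of all tested genes differed by that margin in IP replicates 1, 2 and 3. IP replicate 1 held the highest of the 3 IP values for 22 members (61.1%), against 34% of all tested genes, and IP replicate 2 the lowest for 19 (52.8%), against 38.9%. For vasa the order was another: its enrichment was 102-fold in IP replicate 2, 54.1-fold in IP replicate 1 and 16-fold in IP replicate 3. When IP replicate 2 was left out, the members' median was 0.19, with 3 of 36 called (ddx39aa, ddx39ab and ddx11). In that fit the median over all genes was 0.00, and 1732 of 13265 genes were called. IP replicate 2 was also the shallowest library, and the part of depth in these differences was not tested.

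**Figure D4:**
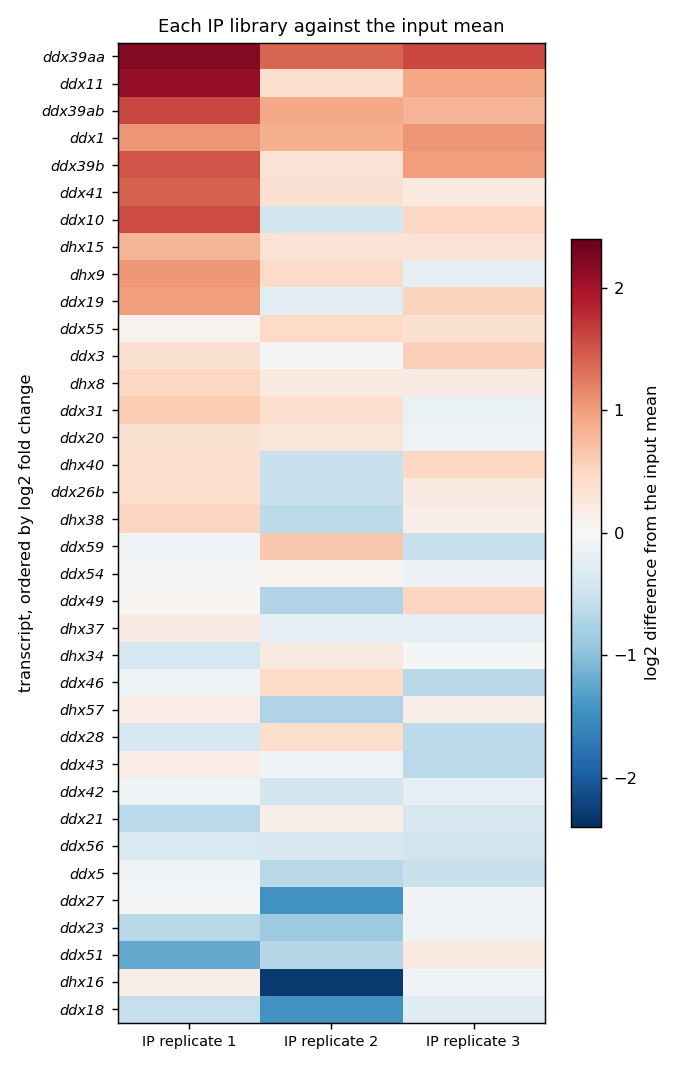
Log2 difference of each IP library from the input mean (colour) for the 36 helicase transcripts (rows), ordered by log2 fold change. ddx39aa is above 0 in every IP library (2.20, 1.39 and 1.61), while dhx16, ddx18 and ddx27 are lowest in IP replicate 2 (-2.30, -1.46 and -1.46).

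Helicases named otherwise were read for comparison. This list mixed RNA helicase genes, such as the eIF4A and Ski2 relatives and pl10, a ddx3 gene, with DNA helicase genes such as blm, wrn and recql. Of 22 tested, 3 were higher, 0 lower and 19 not called, against backgrounds of 4.46% higher and 1.86% lower. Their median log2 fold change was 0.05, beside -0.01 over all genes. At an unadjusted p under 0.05 there were 4 higher and 1 lower (background 21.2%). DESeq2 and voom called 3 higher and 0 lower, and edgeR 2 higher and 0 lower. Over all genes DESeq2 called more than limma did, 1063 higher and 564 lower. The transcript of skiv2l2, the nuclear exosome helicase gene, had 1807.9, 1901.0 and 1562.7 normalized counts in the input libraries and 10262.0, 5376.5 and 5150.5 in the IP libraries. The difference was 3.75-fold (log2 fold change 1.91 ± 0.31, adjusted p = 0.00657). Its IP libraries all lay above its input libraries, an order that 14.6% of all tested genes showed. So did those of helz (1.25 ± 0.25, adjusted p = 0.0152) and of eif4a3, the helicase gene of the exon junction complex (1.01 ± 0.26, adjusted p = 0.0469). Those of eif4a1b all lay below (-0.74 ± 0.27, adjusted p = 0.132, not called), as for 12.9% of all tested genes. The calls did not hold in all fits. That of eif4a3 was lost with edgeR, TMM scaling, library size only and no filter beyond a mean of 1, and without any input library or IP replicate 1. That of helz was lost without any input library and that of skiv2l2 without input replicate 1 or 3. All genes called higher numbered 170, 239 and 188 without input replicates 1, 2 and 3, against 591 in the main fit. Without IP replicate 1 they numbered 271.

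Transcripts of proteins that bind or regulate these helicases were read in the same way, and over 38 tested their median log2 fold change was -0.34, beside -0.01 over all genes. Of these 0 were higher and 2 lower, against backgrounds of 4.46% and 1.86%, and 36 were not called. At an unadjusted p under 0.05 there were 2 higher and 5 lower (background 21.2%), and edgeR and voom called 0 higher and 2 lower. DESeq2 called 0 higher and 3 lower, where over all genes it called 1063 higher and 564 lower. The transcript of alyref, which encodes the export adaptor that is loaded by UAP56, had 2083.6, 1695.1 and 1578.4 normalized counts in the input libraries and 740.1, 1007.6 and 890.4 in the IP libraries. It was thus lower in all IP libraries (-1.02 ± 0.26, adjusted p = 0.0416), an order that 12.9% of all tested genes showed. Other mRNA export genes of this list (thoc1, thoc2, thoc3, thoc5, thoc6 and thoc7) lay between -0.08 and 0.39 and were not called. The transcript of eif4h, which encodes a cofactor of eIF4A, was at -1.45 ± 0.33 (adjusted p = 0.0255), and that of rbm8a, which encodes an exon junction protein, at -0.88 ± 0.28 (adjusted p = 0.0951), called with DESeq2 alone (adjusted p = 0.0425). The calls of alyref and eif4h were lost when any input library, IP replicate 1 or IP replicate 3 was left out, and that of alyref with no filter beyond a mean of 1. All genes called lower numbered 23, 34 and 10 without input replicates 1, 2 and 3, against 247 in the main fit. Without IP replicates 1 and 3 they numbered 60 and 173.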

How the data were processed

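Trizol RNA was made into libraries with the Ovation kit of NuGEN and read as 50 bp single ends on a HiSeq, per the labels' protocols. TopHat, DESeq and the build Zv9 stand in the submitters' processing notes. How reads were counted, on which annotation and with what use of strand is not given in the sources used here, and overlapping genes can therefore share reads. The authors deposited a signal per gene, in normalized counts. In each library, values up to 200 reads were whole multiples of a constant (100% within 0.06 normalized counts). That constant, the worth of 1 read, was 0.682 to 3.76 normalized counts, and dividing by it recovered whole reads. Reads carry no molecular identifiers, so counting precision covers counting error only, and it is lowest in IP replicate 2.

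limma 3.58.1 (R 4.3.3; abundance trend, robust, two-sided) was fitted on log2(normalized count + 4) with group as the only term, over 13265 rows with a mean of at least 10, with Benjamini-Hochberg adjustment over all of them. This scale understates the change of low genes. Every adjusted p comes from this fit unless another tool or setting is named, and errors of fold changes are its standard errors. In the fit of each gene's difference from vasa all genes share the spread of vasa. Exact permutation tests over the libraries, without pairing, are therefore given in its place. As alternatives, recovered reads were fitted with edgeR 4.0.16 (824 genes called), with DESeq2 1.42.0 and with voom of limma. Other alternatives changed the pseudocount, the filter and the scaling, blocked on replicate number or left out 1 library.

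Same-numbered libraries deviated together from their group means across genes (r = 0.294, 0.305 and 0.301 for replicates 1, 2 and 3, with -0.21 to -0.0704 for other pairs). The numbers were therefore taken to pair the libraries, from the data and not from the labels. The main fit does not use this pairing, which enters only in the replicate block and in comparisons of same-numbered libraries. The share of all genes with a given order of same-numbered libraries was not computed, so such an order shows nothing particular to a member. No library duplicated another of its group (chi-square per degree of freedom of 43.3 to 137.1).

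Members and lists were chosen with earlier results of these data known. Genes were named by rule: vasa, members called, the 4 highest and 4 lowest, the 2 of smallest p in each role, the 2 most and 2 least abundant, and the 3 of smallest p in each other list. Values of further members are given to account for all 36 and were chosen after they were seen. Sequences and coordinates were not used here. Tables and plots were made with Python 3.11.15, using scipy 1.17.1, pandas 2.3.3, matplotlib 3.10.9 and numpy 2.4.6.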

Additional observations from a re-analysis of the deposited data

How the results depend on the processing

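IP replicate 2 is the shallowest library, and the part of depth in the calls was not tested. All genes called numbered 838, 1627 with DESeq2 and 1392 with the replicate block, and 193 to 1732 when 1 library was left out. Members called numbered 2, but 1 with library size only, TMM scaling or edgeR, where all genes called were 857, 836 and 824. They numbered 0 to 3 when 1 library was left out (0 when input replicate 2 or 3 was missing, 1 when input or IP replicate 1 was, and 3 when IP replicate 2 was). Calls over all genes fell as well, to 193, 273 or 198 for a missing input replicate 1, 2 or 3. For a missing IP replicate 1 they fell to 331, and for a missing IP replicate 2 they rose to 1732. Member calls lost on leaving out 1 library therefore show nothing particular to the helicases. The block changed no call of a member. The members' median log2 fold change was -0.17 with library size only, where that of all genes was -0.18, so the members moved with the rest. When 1 library was left out it ran from -0.02 to 0.19. The median size of change was 0.37 with voom and ran from 0.25 to 0.40 when 1 library was left out. The count of intervals holding 0 and of members below vasa stayed within 1.5 times under every alternative run for them. These counts began at 32 and 36 of 36 and had little room to move, so this says little. The count below vasa also rests on the limma fit of the difference from vasa, whose p-values are too small (background 99.5%). Without the 20 most abundant rows in the total, the order of the members' mean shares turned, from 0.238% in input and 0.265% in IP to 0.344% in input and 0.319% in IP. Estimates of uncalled genes that changed sign when 1 library was left out ran from -1.20 to 0.04 for dhx16, -0.24 to 0.09 for dhx34, -0.52 to 0.03 for ddx28, -0.38 to 0.03 for ddx43, -0.38 to 0.19 for ddx46 and -0.29 to 0.16 for dhx57. The cause of these changes was not tested. Of 399 values of named genes under alternatives, 355 kept their direction and their side of the threshold. In 33 a gene called in the main fit lost its call, in 2 a call was gained and in 9 the sign turned. Most named genes were not called in the main fit, so the 355 say little about how well calls held.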

Other observations

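Further helicase transcripts stood in the table under clone names or without a symbol. Through gene identifiers or RefSeq synonyms (assembly GRCz12tu), 12 such rows were found, of which 11 were tested. Of the 11, limma called 0 (background 6.32%), with 0 at an unadjusted p under 0.05 (background 21.2%). With edgeR, DESeq2 or voom 0 were called. The median log2 fold change of the 11 rows was 0.39, beside -0.01 over all genes tested. Of their estimates 8 lay above 0 and 3 below (background 49.6% above), with a range from -0.17 to 0.79. The highest was dhx36, a G-quadruplex helicase gene, at 0.79 ± 0.44 (adjusted p = 0.346). The row of dhx29, which encodes a translation initiation helicase, was at 0.58 ± 0.29 (adjusted p = 0.273), and that of the mitochondrial helicase gene dhx30 at 0.63 ± 0.36 (adjusted p = 0.357). The abundant row pl10, the second ddx3 gene, had a mean of 5887 normalized counts in input and 6008 in IP, with an adjusted p of 0.996. This row is also counted among the 22 helicases named otherwise.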
